A study of Saccharomyces cerevisiae with 4 samples.

Results

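The small (40S) ribosomal subunit of budding yeast is built from the 18S rRNA and 32 protein families, RPS0 to RPS31. Of these families, 24 are encoded by a pair of paralogous genes and 8 by a single gene, which gives 56 listed genes. Members were taken by systematic name and not by a cut on any measured value, though with earlier results of these data known. The counted regions held 54 of the 56 genes among 4970 regions in all, and all 54 members passed the filter on low counts, which left 4845 genes to test. RPS22B and RPS26A were not analysed here, so 22 pairs could be compared and RPS22A and RPS26B stand alone.

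The libraries hold newly synthesized RNA of Saccharomyces cerevisiae, measured by 4tU-seq. In this assay a brief pulse of 4-thiouracil marks RNA as it is made, and the marked RNA is purified and sequenced. Both strains were BY4741, a haploid MATa laboratory strain. The first carried syc1::kanMX, in which a drug resistance cassette replaces SYC1 (the Δsyc1 knockout, 2 libraries), and the other was wild-type (2 libraries). Both were grown in YPD at 30 °C until OD600 reached 0.8. The label was 5 mM 4-thiouracil, given for 6 min, and 100 ng of RNA went into each library. SYC1 encodes a subunit of the APT complex. In the study, APT shared its other subunits with the cleavage and polyadenylation factor but was physically distinct from it, and Syc1 was found only in APT. The comparison asks how RNA synthesis differs when that subunit is missing. Libraries of a strain are biological replicates according to the study's methods. Whether each strain was 1 clone is not stated in the sources used here, so the knockout and any other difference between the strains cannot be told apart.

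Yeast makes its ribosomal proteins from strongly transcribed, mostly short genes, many of which carry an intron although introns are rare in this genome. Their promoters are typically bound by Rap1, which brings in Fhl1 and the co-activator Ifh1. TORC1 and protein kinase A signalling adjust this group to growth rate, and it is classically repressed when cells meet stress. Paralogues usually encode the same or nearly the same protein from different promoters, introns and untranslated ends.

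The knockout libraries held 26089573 and 22880058 counts in total, and those of wild-type 36175417 and 35203133. For SYC1 itself, the wild-type libraries had 743 and 794 counts and the knockout libraries 1 and 2, which matched the labels. Replicates correlated at Pearson r = 0.998 (knockout) and r = 0.999 (wild-type) across all genes tested, and at 0.991 and 0.992 across the 54 members, where genes are not independent replicates. Of 5 MATa-specific genes, all were detected and 4 fell in the knockout, with log2 fold changes of the 5 from -2.02 to -0.48. Of 4 MATalpha-specific genes listed, 2 were tested and neither was called (STE3 0.42, SAG1 0.08). SAG1 had 87.0 and 90.7 CPM in wild-type, above AGA2 of the MATa list at 23.3 and 25.6 CPM. Detection of these genes alone thus does not mark the mating type. Of 14 stress response genes tested, 13 rose, with log2 fold changes of the 14 from 0.52 to 2.86. The part of these lists in the results on ribosomal protein genes was not tested.

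As a group, small subunit protein genes gave a smaller share of newly synthesized RNA in the knockout. The members held 0.705% (95% Wilson interval 0.702% to 0.708%) and 0.793% (0.789% to 0.796%) of all counts in the knockout libraries. In wild-type they held 0.971% (0.968% to 0.975%) and 0.970% (0.967% to 0.973%). Both knockout libraries were lower, and the knockout replicates lay much further apart than the wild-type replicates. The knockout mean was 0.749% ± 0.0620 and the wild-type mean 0.971% ± 0.000992 (SD, n = 2), so that the former was 0.771 times the latter. These shares use raw totals. In CPM scaled with TMM factors, as used below, the members summed to 7330 and 8471 in the knockout. In wild-type they summed to 9268 and 9149, so the fall was smaller on this scale. With 2 libraries against 2, an exact permutation test (two-sided) gave p = 0.333, the smallest value this design allows. Intervals cover counting error only. All values are relative to the other RNA of the same library, so a change in RNA synthesis shared by all genes would not be seen.

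Gene by gene, 17 of the 54 members (31.5%) fell and 3 (5.56%) rose at an edgeR adjusted p under 0.1 with a fold change over 1.5. Across all 4845 genes tested, 8.15% fell and 9.08% rose by the same thresholds. The median log2 fold change (knockout over wild-type) was -0.32 over the members, with quartiles of -0.66 and -0.03, and 44 of the 54 lay below zero. Over all genes the median was -0.02, with quartiles of -0.25 and 0.24. In CPM, the usual depth-scaled read count (here with TMM factors), the knockout values were both under the lower wild-type value for 37 members (68.5%) and both over the higher one for 5 (9.26%), and the groups overlapped for 12. Of all genes tested, 43.2% were lower and 40.5% higher in this sense. Ribosomal protein genes are a class that the study itself picked out from these libraries, so their direction here is not independent evidence.

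The number of calls depended on how the fold change minimum was applied. Testing against a fold change of 1.5 instead of no change left 11 members down and 1 up with glmTreat of edgeR, where 4.25% of all genes were down and 6.05% up. DESeq2 tested in the same way left 8 down and 1 up, where 2.62% of all genes were down and 4.73% up. The study's own counts of called genes lay closer to this last setting than to the main one. RPS6B, RPS18B, RPS19B, RPS25A, RPS27B, RPS29B and RPS30B lost their calls in both of these tests, and RPS6A, RPS14B and RPS24A with DESeq2 alone. Shorter mRNAs tended to lower fold changes across the transcriptome, and with this trend removed the median of the members was -0.18, with 12 down and 3 up, where 5.53% of all genes were down and 10% up. RPS6B, RPS18B, RPS19B, RPS25A and RPS30B were then no longer called.

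**Figure D1:**
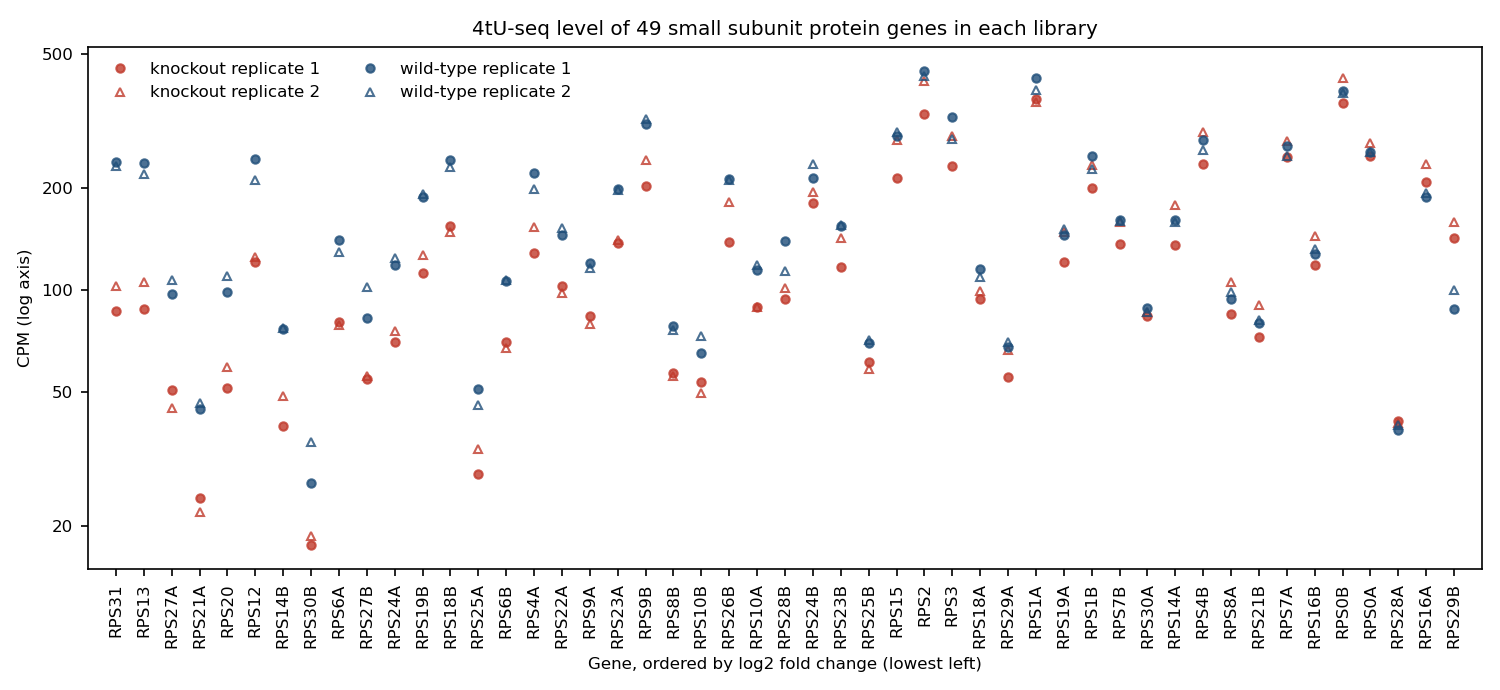
Level of 49 small subunit protein genes in CPM (log axis) in each of the 4 libraries, ordered by log2 fold change with the lowest on the left. Red marks the knockout, blue wild-type, circles replicate 1 and triangles replicate 2. RPS31 at the left end lies at 86.5 and 103 CPM in the knockout against 239.5 and 233 CPM in wild-type, and RPS29B at the right end at 142 and 159 against 88.0 and 99.9 CPM.

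**Figure D2:**
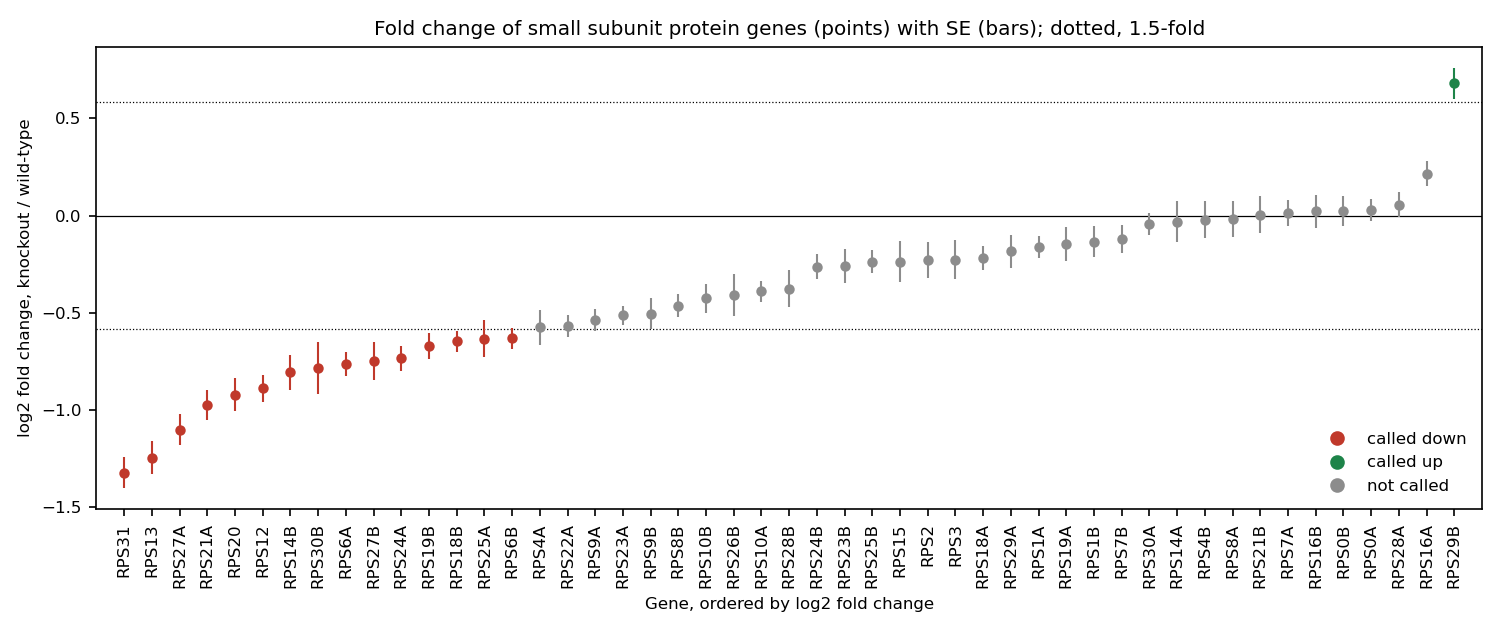
Log2 fold change (knockout over wild-type, vertical axis) of the same 49 genes with standard errors as bars, with dotted lines at a fold change of 1.5 in either direction. Points called down (15) are red, the point called up (RPS29B) is green and points not called (33) are grey.

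Deep falls were seen among the single-copy genes. Of these 8 genes, 4 fell and 4 were not called, with a median of -0.56. RPS31 (YLR167W, chrXII:498891-499453, plus strand, coordinates of sacCer3) encodes a ubiquitin moiety fused to the ribosomal protein eS31, which sits in the beak of the subunit head. It had 86.5 and 103 CPM in the knockout and 239.5 and 233 CPM in wild-type. The groups stood well apart, a 2.50-fold lower level (log2 fold change -1.32 ± 0.08, SE, edgeR adjusted p = 3.39e-06). RPS13 (YDR064W, chrIV:579438-580559, plus strand) encodes uS15, a protein of the body at the interface with the large subunit. Its level was 87.7 and 106 CPM in the knockout and 237 and 221 CPM in wild-type, again without overlap (-1.24 ± 0.09, edgeR adjusted p = 8.22e-06).

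RPS20 (YHL015W, chrVIII:75375-75834, plus strand), which encodes the head protein uS10, had 51.4 and 59.0 CPM in the knockout and 98.4 and 110.3 CPM in wild-type. It was lower in both knockout libraries (-0.92 ± 0.08, edgeR adjusted p = 3.88e-05). RPS12 (YOR369C, chrXV:1028096-1028693, minus strand) encodes eS12, which lies next to eS31 in the beak. It had 121 and 125 CPM in the knockout and 243 and 212 CPM in wild-type (-0.89 ± 0.07, edgeR adjusted p = 1.96e-05). Part of its counted region (10.5%) overlaps RAD17 on the other strand, and whether the counting used strand is not stated. RAD17 had a mean of 1047.5 counts in wild-type against 8564 for RPS12, and a log2 fold change of -0.19.

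RPS2, RPS3 and RPS15 passed the p threshold but not the fold change minimum. RPS3, for uS3 at the mRNA entry, had 233 and 284 CPM in the knockout and 325 and 279 CPM in wild-type, and these ranges overlapped (-0.23 ± 0.10, edgeR adjusted p = 0.081). RPS2, for uS5 at the entry channel, had 331 and 415 CPM against 445 and 428 CPM (-0.23 ± 0.09, edgeR adjusted p = 0.0628). RPS15 encodes uS19, a head protein needed for export of the pre-40S particle. It had 214 and 278 CPM against 286 and 293 CPM (-0.24 ± 0.10, edgeR adjusted p = 0.0762). In all of these genes knockout replicate 2 was the higher of the knockout libraries and lay near wild-type.

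The pairs were compared next, since paralogues share a protein but not a gene. Of the 22 pairs, both genes fell in 3 (RPS6 and RPS27 among them), both rose in 1, exactly 1 gene was called in 8, and neither in 10. In no pair were the paralogues called in opposite directions, although the fold changes had opposite signs in 4. The difference in log2 fold change between paralogues had a median size of 0.41, from 0.0042 in RPS0 to 0.98 in RPS21. It exceeded 3 standard errors in 13 pairs and was under 2 in 7. These errors treat the paralogues as independent although both were measured in the same libraries, so the counts of pairs are only a rough guide. The A gene lay above the B gene in 11 pairs and below it in 11, so no side was favoured. Counts summed over a pair were lower in the knockout in 18 of 22 pairs, with a median log2 ratio of -0.27.

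**Figure D3:**
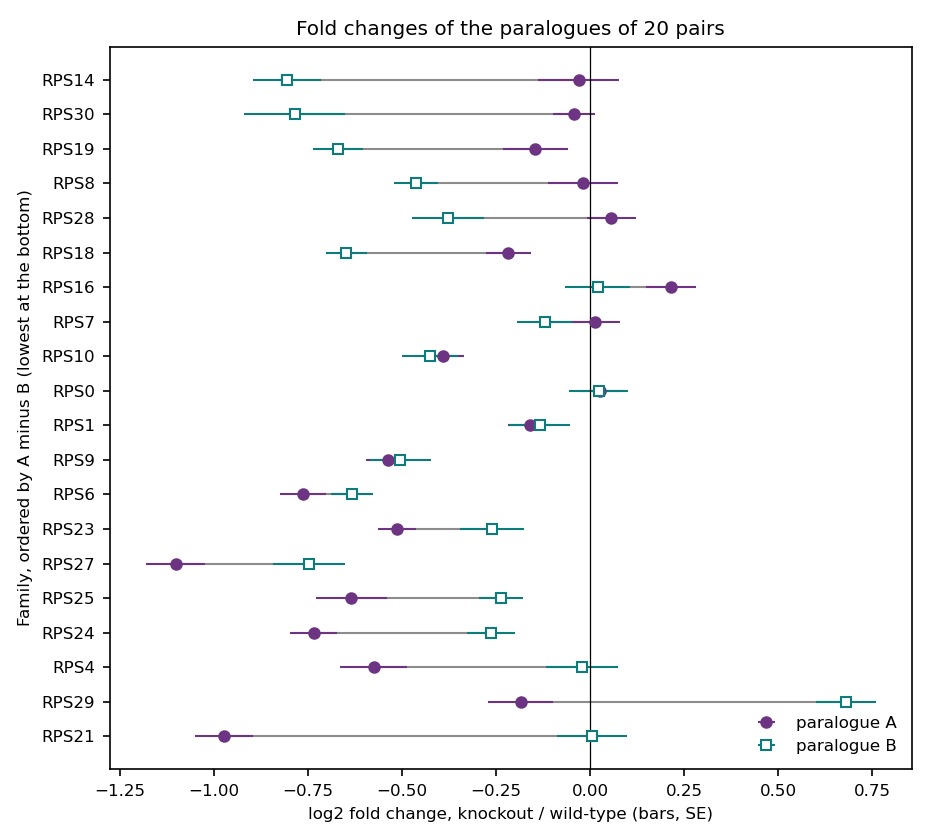
Log2 fold change (knockout over wild-type, horizontal axis) of paralogue A (filled circle) and paralogue B (open square) with standard errors as bars, for 20 families ordered by A minus B. RPS21 is lowest with a difference of -0.98 ± 0.12 and RPS14 highest with 0.77 ± 0.14, while both genes of RPS27 lie to the left.

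RPS29B was a member that rose. Its pair encodes uS14, a small zinc-binding protein of the head. RPS29B (YDL061C, chrIV:340462-341251, minus strand) had 142 and 159 CPM in the knockout and 88.0 and 99.9 CPM in wild-type, without overlap (0.68 ± 0.08, edgeR adjusted p = 1.52e-04). RPS29A (YLR388W, chrXII:898122-898914, plus strand) had 55.3 and 66.4 CPM in the knockout and 67.9 and 70.2 CPM in wild-type and was not called (-0.18 ± 0.09, edgeR adjusted p = 0.0898). RPS29A thus made up 28.0% and 29.5% of the pair's counts in Δsyc1 and 43.6% and 41.3% in wild-type, and the paralogues differed by -0.86 ± 0.12. RPS29B was no longer called with no normalization factors, nor when tested against a fold change of 1.5.

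The 300 bases before the counted start of RPS29A, RPS29B, RPS13 and RPS31 are shown because they set a pair in which 1 gene rose beside the single-copy genes with the deepest falls. Sequences are from RefSeq assembly R64, 5′ to 3′ on the strand of the gene. Capitals mark the Rap1 core ACCCNNACA on either strand, which RPS13 holds in 1 place and the other genes in none within this window.
RPS29A (chrXII:897822-898121, plus strand): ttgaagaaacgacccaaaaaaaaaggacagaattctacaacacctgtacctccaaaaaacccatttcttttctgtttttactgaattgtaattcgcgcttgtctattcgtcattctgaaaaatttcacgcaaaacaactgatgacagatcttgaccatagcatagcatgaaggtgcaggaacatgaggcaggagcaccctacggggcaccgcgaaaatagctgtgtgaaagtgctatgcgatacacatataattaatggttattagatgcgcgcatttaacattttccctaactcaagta
RPS29B (chrIV:341252-341551, minus strand): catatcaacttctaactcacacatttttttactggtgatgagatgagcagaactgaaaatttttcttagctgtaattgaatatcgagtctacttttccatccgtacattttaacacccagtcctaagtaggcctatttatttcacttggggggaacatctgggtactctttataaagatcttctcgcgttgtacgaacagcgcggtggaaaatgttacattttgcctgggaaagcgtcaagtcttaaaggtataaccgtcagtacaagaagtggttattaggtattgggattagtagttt
RPS13 (chrIV:579138-579437, plus strand): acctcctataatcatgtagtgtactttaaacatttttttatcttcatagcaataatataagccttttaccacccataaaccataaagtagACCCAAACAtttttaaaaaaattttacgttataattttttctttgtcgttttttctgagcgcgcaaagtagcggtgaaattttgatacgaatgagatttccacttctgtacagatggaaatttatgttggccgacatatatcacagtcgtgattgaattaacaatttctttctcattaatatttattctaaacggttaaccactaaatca
RPS31 (chrXII:498591-498890, plus strand): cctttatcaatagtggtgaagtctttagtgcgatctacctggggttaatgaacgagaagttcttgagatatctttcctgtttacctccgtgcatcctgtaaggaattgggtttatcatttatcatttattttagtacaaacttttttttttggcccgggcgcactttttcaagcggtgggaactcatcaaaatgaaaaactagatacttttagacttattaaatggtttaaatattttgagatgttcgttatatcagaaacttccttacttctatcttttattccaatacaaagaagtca

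Within 500 bases of the start the core was found, on either strand, before 20 of 54 members (37.04%) and before 285 of all 4909 counted mRNAs (5.81%). The 25 cores before members lay 159 to 483 bases from the counted start, with a median of 311. The 20 members with a core had a median log2 fold change of -0.15, with 4 down and 1 up, and the 34 without had a median of -0.51, with 13 down and 2 up. GACGCA, part of the site described for Fhl1, was before 6 members (11.1%) against 10.9% of all counted mRNAs. AAAATTTT, the RRPE motif of ribosome biogenesis genes, was before 3 members (5.56%) against 13.6%. A match is a run of letters only and was not tested as a binding site. Sites spelt otherwise were not searched for, so members without a match were not shown to lack a Rap1 site.

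In 7 pairs exactly 1 gene was called, and that gene fell. RPS21 showed the largest difference between paralogues. It encodes eS21, which contacts uS2 on the platform side of the subunit. RPS21A (YKR057W, chrXI:551628-552420, plus strand) had 24.2 and 21.96 CPM in the knockout and 44.4 and 46.4 CPM in wild-type, with no overlap (-0.97 ± 0.08, edgeR adjusted p = 1.85e-05). RPS21B (YJL136C, chrX:156423-157306, minus strand) had 72.3 and 90.1 CPM in the knockout and 80.0 and 81.6 CPM in wild-type, and the wild-type values lay between those of the knockout (0.01 ± 0.09, edgeR adjusted p = 0.964). RPS21A made up 25.1% and 19.6% of the pair's counts in Δsyc1 and 35.7% and 36.2% in wild-type (-0.98 ± 0.12).

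RPS14 split in the same manner with the B gene lower. It encodes uS11 of the platform, and in yeast the Rps14 protein is known to bind the pre-mRNA of RPS14B and limit its splicing. RPS14B (YJL191W, chrX:73764-74716, plus strand) had 39.5 and 48.6 CPM in the knockout and 76.8 and 77.0 CPM in wild-type (-0.81 ± 0.09, edgeR adjusted p = 1.22e-04). RPS14A (YCR031C, chrIII:177400-178241, minus strand) had 135 and 178 CPM in the knockout and 161 and 158 CPM in wild-type, which overlapped (-0.03 ± 0.11, edgeR adjusted p = 0.817). RPS14A made up 77.4% and 78.5% of the pair's counts in Δsyc1 and 67.8% and 67.3% in wild-type (0.77 ± 0.14). RPS30 encodes eS30 of the body, and its B gene had the lowest wild-type level per kb of all members. RPS30B (YOR182C, chrXV:678090-678821, minus strand) had 17.6 and 18.7 CPM in the knockout and 26.8 and 35.6 CPM in wild-type (-0.78 ± 0.13, edgeR adjusted p = 0.00113). RPS30A (YLR287C-A, chrXII:712328-713177, minus strand) had 83.6 and 85.8 CPM and 88.2 and 86.2 CPM and lay close together in all 4 libraries (-0.04 ± 0.06, edgeR adjusted p = 0.522). The wild-type replicates of RPS30B differed widely, and without wild-type replicate 2 it was no longer called (-0.57).

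**Figure D4:**
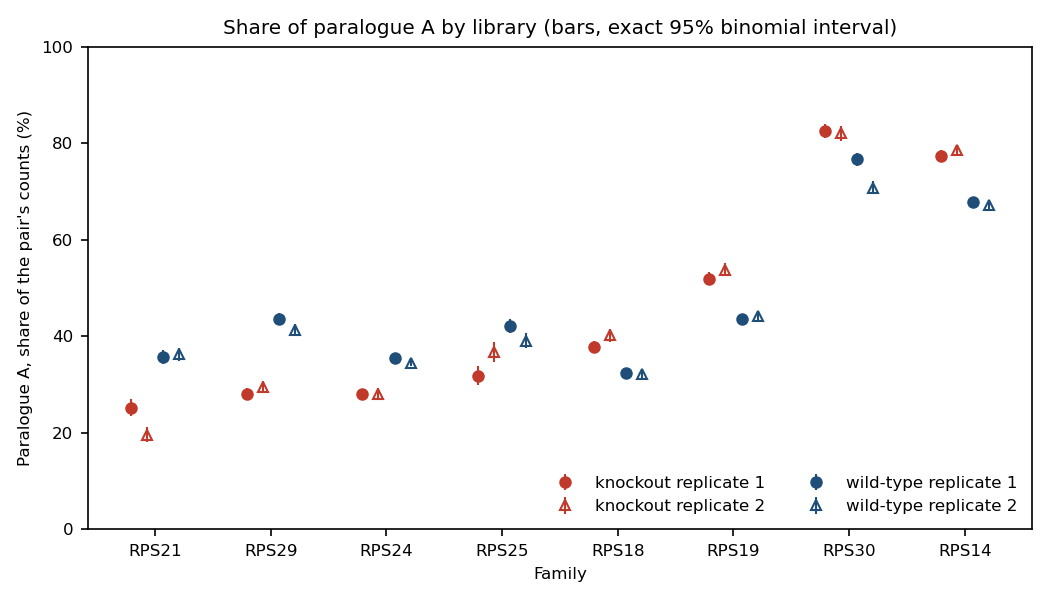
Share of the pair's counts that came from paralogue A (vertical axis, percent) in each library for 8 families in which 1 gene was called or the fold changes differed by more than 0.58 on the log2 scale. Red is the knockout, blue wild-type, and bars are exact 95% binomial intervals. The shares of RPS21 are 25.1% and 19.6% in the knockout against 35.7% and 36.2% in wild-type.

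The other 4 pairs with 1 falling gene differed less. RPS19, whose human counterpart is a Diamond-Blackfan anaemia gene, encodes eS19 of the head. RPS19B had 112 and 127 CPM in the knockout and 188 and 192 CPM in wild-type (-0.67 ± 0.07, edgeR adjusted p = 6.38e-05), and RPS19A 121 and 148 against 146 and 152 CPM (-0.15 ± 0.09). Only the B gene kept the groups apart, with a difference of 0.53 ± 0.11. RPS24 encodes eS24 of the body. RPS24A had 70.1 and 75.6 CPM in the knockout and 118 and 124 CPM in wild-type (-0.73 ± 0.06, edgeR adjusted p = 2.64e-05), and RPS24B 181 and 194 against 214 and 236 CPM (-0.26 ± 0.06). Both genes were lower in every knockout library, and their difference was -0.47 ± 0.09.

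RPS18 encodes uS13 of the head, near the P site. RPS18B had 154 and 148 CPM in the knockout and 242 and 231 CPM in wild-type (-0.65 ± 0.05, edgeR adjusted p = 2.35e-05), and RPS18A 93.9 and 99.5 against 115 and 109 CPM (-0.22 ± 0.06). The ranges of both genes were separate and the difference was 0.43 ± 0.08. RPS25 encodes eS25, a head protein used in initiation at viral internal ribosome entry sites. RPS25A had 28.5 and 33.8 CPM in the knockout and 50.7 and 45.7 CPM in wild-type (-0.63 ± 0.09, edgeR adjusted p = 5.83e-04), and RPS25B 61.1 and 58.3 against 69.8 and 71.2 CPM (-0.24 ± 0.06). The groups did not overlap for either gene, and the difference was -0.40 ± 0.11. RPS19B was no longer called without knockout replicate 1, and RPS25A not without knockout replicate 1 or wild-type replicate 1.

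RPS27 and RPS6 fell in both copies. RPS27 encodes eS27, a zinc finger protein. RPS27A (YKL156W, chrXI:158596-159439, plus strand) had 50.6 and 44.7 CPM in the knockout and 97.4 and 107 CPM in wild-type (-1.10 ± 0.08, edgeR adjusted p = 1.02e-05). RPS27B had 54.6 and 55.5 CPM in the knockout and 82.6 and 102 CPM in wild-type (-0.75 ± 0.10, edgeR adjusted p = 2.69e-04), and it was no longer called without wild-type replicate 2 or when tested against a fold change of 1.5. The other strand of RPS27A holds RSM22 over 8.77% of its counted region, with a mean of 5584 counts in wild-type against 3848 for RPS27A and a log2 fold change of -0.15. RPS6 encodes eS6, the ribosomal protein that is phosphorylated downstream of TORC1. RPS6A had 80.4 and 78.7 CPM in the knockout and 140.5 and 129.7 CPM in wild-type (-0.76 ± 0.06, edgeR adjusted p = 1.94e-05), and RPS6B 70.1 and 67.4 against 106 and 107 CPM (-0.63 ± 0.06, edgeR adjusted p = 3.25e-05). All ranges were separate. Against a fold change of 1.5, RPS6B lost its call with glmTreat and both RPS6 genes lost theirs with DESeq2. In sequence, 39.0% of the 50-mers of RPS6A and 42.2% of those of RPS6B occur elsewhere in the genome, and reads that align equally well to both were removed upstream. RPS27B, RPS6A and RPS6B are named here after their values were seen, as the called members that the naming rule left out.

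The 25 members outside the naming rule had log2 fold changes from -0.76 to 0.22, with 3 down and 0 up. Just inside the fold change minimum was RPS6B at -0.63, and just outside it were RPS4A at -0.58 and RPS22A at -0.57. Some pairs, chosen after their values were seen, had close fold changes. RPS0, which encodes uS2, differed by 0.00 ± 0.10 between paralogues, RPS1 (eS1) by -0.03 ± 0.10 and RPS9 (uS4) by -0.03 ± 0.10. RPS4 (eS4) had the largest difference among pairs without a call, -0.55 ± 0.13, in genes with 31.3% and 29.3% of 50-mers repeated.

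**Figure D5:**
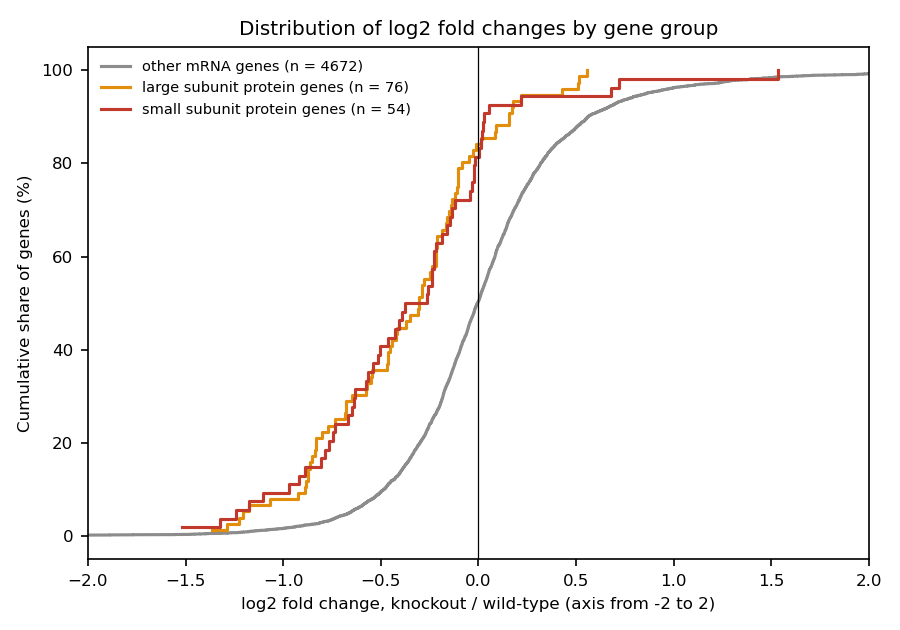
Cumulative share of genes (vertical axis, percent) by log2 fold change (knockout over wild-type, horizontal axis, shown from -2 to 2) for small subunit protein genes (red), large subunit protein genes (orange) and other mRNAs (grey). The medians are -0.32 for the 54 small subunit genes and -0.30 for the 76 large subunit genes, against -0.01 over all mRNAs tested.

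Large subunit protein genes had a similar median fold change. Of 81 listed, 76 were tested, with a median of -0.30, a range from -1.36 (RPL10) to 0.56 (RPL6A), and 23 down and 0 up. The 3 rising small subunit genes had no counterpart among them at these thresholds, a difference that was not tested. Length was set beside this, since the members are short, with a median counted length of 921 nt (346 to 1378). The 2180 other mRNAs within that length range had a median of -0.13, with 256 down (11.7%) and 145 up. Spearman's rho between length and log2 fold change was 0.178 over the 54 members and 0.333 over 4802 mRNAs, given as a description across genes.

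Levels among the members spanned 11.9-fold in wild-type and 19.8-fold in the knockout when divided by counted length, which includes introns. In wild-type, RPS30B was lowest at 42.6 CPM per kb, the median was 153, and RPS15 was highest at 506 ± 9.11 CPM per kb (SD, n = 2). RPS31 went from rank 4 of 54 in wild-type to rank 21 in the knockout, and RPS13 from 19 to 38. RPS29B went from rank 36 to rank 16. Wild-type level itself had little relation to the fold change across members (rho = 0.147, n = 54), and GC content likewise (rho = 0.103). In the 22 pairs the paralogue that was lower in wild-type had the lower fold change in 12.

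Of the 54 members, 35 carry an intron. Those with an intron had a median of -0.42, with 13 down and 2 up, and the 19 without had a median of -0.24, with 4 down and 1 up. Counts cover the whole transcribed region with its introns, so spliced and unspliced RNA cannot be told apart. The first 6 bases of the intron were GTATGT in 23 genes (8 down and 0 up), GTACGT in 9 (4 down and 0 up) and GTATGA in 3 (1 down and 2 up), RPS6A among them. The 5′ splice sites of RPS6, in which both genes fell, and of RPS14 and RPS21, which split, are shown because paralogues can differ there. Each line has 10 bases of exon and 20 of intron from RefSeq R64, with the first 6 intron bases in capitals.
RPS6A (intron chrXVI:377996-378389, minus strand): catcatgaagGTATGAtttatgatactatt
RPS6B (intron chrII:592417-592768, minus strand): catcatgaagGTATGTaatatcacccaaat
RPS14A (intron chrIII:177907-178213, minus strand): gccatgtctaGTATGTttaatcacatagtg
RPS14B (intron chrX:73797-74204, plus strand): atggctaacgGTACGTgaaaggggtgatat
RPS21A (intron chrXI:551681-552002, plus strand): gggccaattaGTATGTtcgagaaatctata
RPS21B (intron chrX:156790-157249, minus strand): gggtcaattaGTACGTaaattatagcagat

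RPS6A has GTATGA and RPS6B has GTATGT, and both RPS6 genes fell. In RPS14 and RPS21 the A gene has GTATGT and the B gene GTACGT, and the lower fold change was in B for RPS14 and in A for RPS21. These pairs are examples only, and any relation of the site to the fold change was not tested. By place in the subunit, 22 genes for head proteins had a median of -0.31 (8 down, 1 up) and 32 for body or platform proteins a median of -0.34 (9 down, 2 up). The 23 genes of universal (uS) proteins had a median of -0.23 (4 down, 3 up) and the 31 of eukaryotic (eS) proteins a median of -0.42 (13 down, 0 up). None of these differences between groups of members was tested.

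The list of regulators of ribosomal protein genes had a median near that of all genes. Of 14 listed, 11 were tested, with a median of -0.06, 0 down and 2 up, and IFH1, SFP1 and TOR1 were not analysed here. CRF1, a co-repressor that acts on ribosomal protein promoters when TORC1 is inhibited, had 75.3 and 81.8 CPM in the knockout and 18.5 and 15.4 CPM in wild-type (2.21 ± 0.09, edgeR adjusted p = 5.65e-07). This was a larger change than that of any member. DOT6, a repressor of ribosome biogenesis genes, had 415 and 434 CPM in the knockout and 260.0 and 285 CPM in wild-type (0.64 ± 0.06, edgeR adjusted p = 4.71e-05). RAP1 had 264 and 265 CPM against 331 and 343 CPM (-0.35 ± 0.05) and passed the p threshold but not the fold change minimum. FHL1 had 321 and 319.7 CPM against 334 and 336 CPM (-0.06 ± 0.05, edgeR adjusted p = 0.267).

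Dedicated chaperones bind several of these proteins before assembly. Of the 4 listed, 2 fell and 1 rose. FAP7, the factor that loads Rps14, had 20.8 and 20.5 CPM in the knockout and 35.1 and 33.0 CPM in wild-type (-0.72 ± 0.08, edgeR adjusted p = 9.09e-05). Of the genes of its client, RPS14B fell and RPS14A was not called (-0.03). TSR2, the chaperone of Rps26, had 64.0 and 55.9 CPM in the knockout and 93.5 and 95.3 CPM in wild-type (-0.65 ± 0.07, edgeR adjusted p = 1.12e-04). RPS26B, the only gene of its client analysed, was not called (-0.41). YAR1, the chaperone of Rps3, was higher, with 507 and 485 CPM in the knockout and 321 and 313 CPM in wild-type (0.65 ± 0.05, edgeR adjusted p = 1.84e-05), while RPS3 was not called.

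The levels of the members can be set beside those of a stress gene, divided by counted length. HSP104, the disaggregase of the heat shock response, named here after its value was seen, had 12427 and 12945 CPM in the knockout and 9164 and 8582 CPM in wild-type (0.52 ± 0.09), and its counted region is 2819 nt long. Its mean level per length was 4500.2 CPM per kb in the knockout and 3148 in wild-type, against 491 and 506 CPM per kb for the highest small subunit protein gene in each group. Every member was thus below this heat shock gene in wild-type libraries too. HSP104 was the highest of the 14 stress response genes tested, which began at 0.301 CPM per kb in wild-type (HSP12). HSP42, SSA4 and HSP78 also lay above the highest member, at 1870, 1212 and 871 CPM per kb in wild-type. In the knockout they were at 3180, 4121 and 2119 CPM per kb. The rest of the stress response genes tested lay below the highest member in both groups. The comparison therefore does not hold for stress genes as a class.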

How the data were processed

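The deposited table holds raw HTSeq counts per gene for 4970 regions in 4 libraries of 4tU-seq. Per the labels and the study's methods, the authors aligned paired-end reads to sacCer3 with STAR 2.3.0, filtered them with SAMtools for proper pairs and mapping quality, and counted whole transcribed regions. A second deposited table of the authors' own comparison was not used. All count columns matched a sample (0 did not), and 0 rows named no gene.

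Members and gene lists were chosen with earlier results of these data known. Genes with a mean of at least 30 counts in either group, divided by DESeq2 1.42.0 size factors, were tested with the quasi-likelihood test of edgeR 4.0.16 in R 4.3.3 (TMM scaling, group as the only term, Benjamini-Hochberg adjustment over all 4845 genes). A gene was called when its fold change passed 1.5 in either direction with an adjusted p below 0.1. The study names the same cutoffs but reported far fewer mRNAs on either side than the 359 down and 438 up here. Of all genes, DESeq2 tested against a fold change of 1.5 called 127 down and 229 up, closer to the study's counts. That setting left 8 members down and 1 up. How the study applied its fold change minimum was not tested. Standard errors are per gene, and the error of a paralogue difference combines both as if they were independent. P-values test the group difference against the spread between 2 libraries a group. The spread of each gene was estimated with information from all genes tested. Named members are the single-copy genes, the 10 deepest falls, those that rose, and pairs with 1 gene called or a difference over 0.58. Some members that this rule names are not reported here. Alternatives covered scaling, filters, thresholds, DESeq2, a length offset, a replicate block and each library left out. Symbols, introns and sequences are from RefSeq R64, whose coordinates equal sacCer3, and figures were drawn with matplotlib 3.10.9.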

Additional observations from a re-analysis of the deposited data

How the results depend on the processing

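Over the alternatives tried, 17 members down and 3 up became 11 and 1 with glmTreat and 8 and 1 with DESeq2, both against a fold change of 1.5. With no fold change minimum 36 members were down, where 35.5% of all genes were down and 33.5% up. With no normalization factors 23 members were down and 1 was up, where 13.5% of all genes were down and 6.36% up. Leaving out each library in turn gave a median of the members from -0.41 to -0.25. The median paralogue difference then ranged from 0.29 to 0.46 (main value 0.41), and the ratio of the members' share from 0.726 to 0.816. The median was -0.40 with upper-quartile scaling, -0.47 with no normalization factors, -0.18 with a length offset, -0.18 with a replicate block and length offset, and -0.25 without members with over 10% of 50-mers repeated. The median of all genes moved to -0.10 with upper-quartile scaling and to -0.17 with no normalization factors. The causes of these shifts were not tested, apart from the fewer genes that a stricter test can call.

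For 24 of the named members the fold change was recomputed singly under each alternative, and the counts that follow cover these genes only. Of 456 values, 15 changed sign, each of a gene that was not called. RPS21B was -0.0801 with upper-quartile scaling, -0.15 with no normalization factors, -0.00226 with TMM computed without ribosomal protein genes, -0.000976 with the replicate block and -0.000764 with the crossed block. With the length offset, RPS14A was 0.13, RPS15 0.0310, RPS19A 2.77e-05 and RPS30A 0.12. With the replicate block and length offset, RPS14A was 0.12, RPS15 0.0149 and RPS30A 0.12. With each library left out in turn, RPS14A ranged from -0.244 to 0.153 and RPS21B from -0.164 to 0.155. Another 25 values fell short of a threshold they had passed and 7 passed one they had missed, against 409 that kept direction and side. Over all 54 members, 50 lay below zero with no normalization factors and 36 with the length offset, against 44.

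Deviations of same-numbered libraries from their group means were correlated at -0.181 over 4845 genes. With 2 libraries a group the crossed value is 0.181 by construction. This cannot decide whether same-numbered libraries were handled together. A fit with the replicate block gave 17 members down and 3 up, and it changed no call of a member. A block with the numbers crossed, chosen after seeing the data, also gave 17 and 3. With 2 libraries a group, genes with wide replicate spread such as RPS30B are the least certain.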

Other observations

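Several members lie near another member on the same chromosome, not always as adjacent genes. RPS14B and RPS22A are convergent on chromosome X with 43 bases between their counted regions, and their log2 fold changes were -0.81 and -0.57. RPS6B and RPS9B on chromosome II are 11679 bases apart (-0.63 and -0.50), and RPS6A and RPS9A on chromosome XVI 26494 bases (-0.76 and -0.54). RPS28A and RPS30B on chromosome XV are 29070 bases apart and differed (0.06 and -0.78). Any relation between nearby members was not tested. YHP1, on the other strand of RPS18A over 0.495% of its counted region, had a log2 fold change of -1.06.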
